A study of Mus musculus with 8 samples.

Results

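The 45 genes described here encode complement components and regulators and the factors of blood coagulation and clot dissolution. They were taken by symbol, and all 45 were among the 31910 genes of the count table. Messenger RNA was measured by RNA sequencing of frozen mouse liver. Mice behind the 4 SA libraries had received an adeno-associated virus called AAV2/9-SA, and those behind the 4 Ctrl libraries AAV2/9-Ctrl, each at 4.8e10 vector genomes per mouse by tail vein after 7 weeks of feeding. The series describes a high-fat diet for 24 weeks, a diet rich in fat and cholesterol with sugared water for 16 weeks, and chow. Which diet the mouse behind each library ate is not stated in the labels, nor are strain, sex or age, the promoter of the vector, or what SA abbreviates. By its title, the study is about a protein of bacterial origin, acetyl-CoA carboxylase and steatohepatitis, an inflamed fatty liver. The labels do not state that the libraries came from separate animals, so the spread behind each p-value may be technical.

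Complement is a cascade of plasma proteins that marks and lyses microbes and clears debris. C1q starts the classical pathway and mannose-binding lectins start the lectin pathway. Both lead, with the amplifying alternative pathway, to cleavage of C3 and then to the membrane attack complex. Coagulation is a parallel protease cascade in which thrombin turns fibrinogen into fibrin, and plasmin dissolves the clot. Hepatocytes make most of these proteins and secrete them into blood, whereas C1q is made mainly by macrophages, in liver the resident Kupffer cells. In mice, factor D (Cfd) is known as an adipocyte product, and properdin (Cfp) as a product of myeloid cells.

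Total counts were 14114145 to 28184001 in SA and 14359368 to 15328093 in Ctrl. Levels are given as CPM, the count of a gene scaled to 1e6 counts of all tested genes, with TMM factors. The mitochondrial share of counts was 9.23% in Ctrl 4, while the remaining 7 libraries had 3.55% to 4.88%. The hepatocyte markers were present: albumin and the other 13 in the table summed to 74070 to 98607 CPM in SA and 81218 to 103235 CPM in Ctrl, with none at 0. Log2 fold changes are SA over Ctrl with their SE, and adjusted p-values are from the quasi-likelihood test of edgeR with Benjamini-Hochberg adjustment over all 12358 tested genes.

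Promoter sequence is shown for the 3 fibrinogen genes, which lie side by side, for C3, the 1 member whose groups did not overlap in CPM, and for C1qc as the macrophage-made contrast. The sequences are from RefSeq on GRCm38.p6, each the 250 bases before the gene start in RefSeq, read 5′ to 3′ on the gene's strand. In GENCODE M21, Fga starts at 83026076 and C1qc at 136893065, so part of each of their windows lies inside the gene there. Capitals mark matches, on either strand, to TTCNNNGAA (the site bound by STAT proteins), TTGCNNAA (C/EBP) and GAGGAAGT (PU.1, a myeloid factor). The windows are chr3:83025903-83026152 (+) for Fga, chr3:83049864-83050113 (-) for Fgb, chr3:83007474-83007723 (+) for Fgg, chr17:57228137-57228386 (-) for C3 and chr4:136892915-136893164 (-) for C1qc.
Fga: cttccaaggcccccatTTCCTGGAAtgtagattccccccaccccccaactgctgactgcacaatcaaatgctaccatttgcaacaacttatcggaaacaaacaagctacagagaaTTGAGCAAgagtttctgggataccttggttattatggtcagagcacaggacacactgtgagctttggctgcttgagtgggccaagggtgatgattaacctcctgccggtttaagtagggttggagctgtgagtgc
Fgb: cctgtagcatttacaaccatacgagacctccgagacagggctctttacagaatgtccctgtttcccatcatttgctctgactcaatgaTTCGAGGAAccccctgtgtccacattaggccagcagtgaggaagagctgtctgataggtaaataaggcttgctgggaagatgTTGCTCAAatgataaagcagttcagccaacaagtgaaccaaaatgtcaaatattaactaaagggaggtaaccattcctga
Fgg: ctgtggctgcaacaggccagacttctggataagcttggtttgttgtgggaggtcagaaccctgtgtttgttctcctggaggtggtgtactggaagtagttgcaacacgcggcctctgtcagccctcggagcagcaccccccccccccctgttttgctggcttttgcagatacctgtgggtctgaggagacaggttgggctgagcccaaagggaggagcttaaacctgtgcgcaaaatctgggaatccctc
C3: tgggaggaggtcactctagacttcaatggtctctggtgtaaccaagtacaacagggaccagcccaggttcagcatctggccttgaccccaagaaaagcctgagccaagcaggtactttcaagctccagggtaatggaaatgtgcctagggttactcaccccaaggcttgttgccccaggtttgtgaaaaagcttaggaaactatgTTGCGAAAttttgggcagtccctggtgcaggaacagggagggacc
C1qc: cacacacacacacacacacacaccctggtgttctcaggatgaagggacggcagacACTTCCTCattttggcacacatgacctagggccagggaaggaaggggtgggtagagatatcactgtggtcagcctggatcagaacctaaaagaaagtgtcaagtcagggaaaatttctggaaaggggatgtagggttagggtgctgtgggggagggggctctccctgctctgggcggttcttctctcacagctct
Fga and Fgb each hold a STAT match and a C/EBP match, and Fgg holds neither in this window. Counted from the RefSeq starts, C3 holds a C/EBP match at positions -45 to -38, and C1qc a PU.1 match at -195 to -188.

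A window was at hand for 34 of the 45 members. TTGCNNAA was found in 8 of them, 23.5%, against 9.56% of all 27018 windows of that length. TTCNNNGAA was found in 6, 17.6%, against 7.18% of all windows. The member windows with a C/EBP match were those of Fga, Fgb, C3, C9, F9, F11, Klkb1 and Hrg, and those with a STAT match were Fga, Fgb, C8a, Masp2, F9 and Pros1. GAGGAAGT was found in that of C1qc alone among the members, 2.94%, against 2.44% of all windows. The motif of HNF1, a hepatocyte factor, was found in 1, that of Hc, 2.94% against 0.137%. TATAAA was found in 3, 8.82% against 13%. These matches describe letters in the window, and overlaps between the motifs were not removed.

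The largest fold changes between the groups were those of Cfd, at 25.9 CPM in SA and 71.0 CPM in Ctrl, and C3, at 6979 CPM in SA and 4715 CPM in Ctrl. None of the 42 tested members passed an adjusted p under 0.05 with edgeR, where 2 of all 12358 genes, 0.0162%, did. DESeq2 called none of the members either, against 0.425% of all genes it tested, and limma on FPKM called none with a pseudocount of 1 or 0.1, against 0.0324% of all genes. At an unadjusted p under 0.05 there were 3 members, where 6.21% of all genes passed. C3 and C4b had a positive fold change, where 2.91% of all genes passed in that direction, and Cfd a negative one, where 3.29% did. The sign was positive for 32 of the 42 members, or 76.2%, against 48.7% of all tested genes, with a median log2 fold change of 0.12 against -0.01. The 22 complement members had a median of 0.21 with 18 positive, and the 20 coagulation members a median of 0.06 with 14 positive. Without SA 1, 28 of the 42 were positive, all of them among the 32, against 48.5% of all genes, and without Ctrl 3 likewise 28, all among the 32, against 49.9%. Without Ctrl 4, 32 were positive, of which 25 were among the first 32, against 49.0% of all genes.

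**Figure D1:**
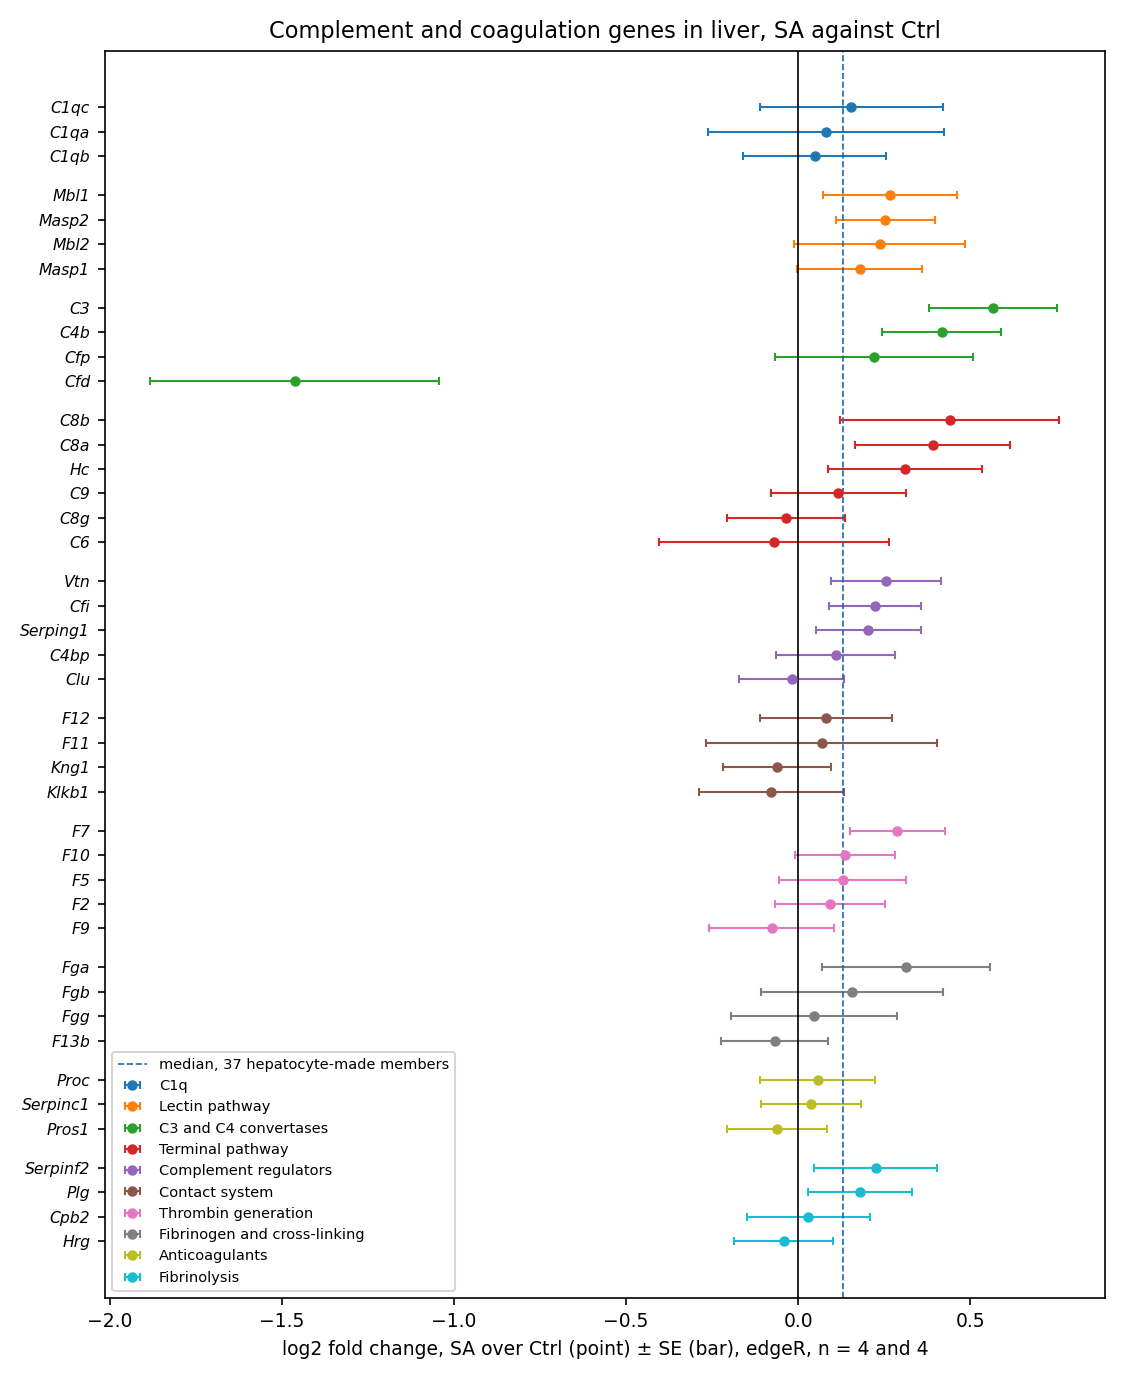
Log2 fold change, SA over Ctrl, of the 42 tested members by role (x axis; points, edgeR estimates; bars, SE; n = 4 and 4), with the median of the 37 hepatocyte-made members as a dashed line. Cfd stands at -1.46, and the other members lie between -0.08 and 0.57.

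Members differed far more in level than between the groups. In counts per kilobase of exon, Fga was at 1532 CPM per kilobase in SA and 1232 in Ctrl, and Fgg at 1411 in SA and 1367 in Ctrl. C3 followed in SA at 1359 CPM per kilobase, but with 918 in Ctrl it lay below Clu at 1124 and Vtn at 977. The place of Fga rests on the count table, for in the FPKM table its means were 74.1 FPKM in SA and 61.2 FPKM in Ctrl, far below Fgg at 2549 FPKM in SA and 2440 FPKM in Ctrl. The lowest of the 42 tested members in counts per kilobase was Masp1, a lectin pathway protease, at 21.7 CPM per kilobase in SA and 19.2 in Ctrl. Its place too rests on this measure. Before division by length it was at 186 CPM in SA and 164 CPM in Ctrl, above Cfp at 41.8 and 35.9 CPM. In the FPKM table it was at 34.3 FPKM in SA and 25.1 FPKM in Ctrl, above C8a at 7.77 and 1.40 FPKM. The members together took 3.68% to 4.93% of all counts in SA and 3.53% to 3.70% in Ctrl, with SA 1 and SA 3 the highest of the 8 libraries.

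Of the members, C2, Cfb and Serpind1 were not tested, for they had 0 to 4 counts per library, with Cfb and Serpind1 at 0 in every library. A count of 0 allows up to 0.108 to 0.215 CPM in these libraries, at 3 counts each and for counting error only. In the authors' FPKM table the same genes were abundant. Cfb, the protease of the alternative pathway convertase, was at 541, 497, 548 and 669 FPKM in SA and 510, 379, 586 and 345 FPKM in Ctrl. C2, its classical pathway counterpart, was at 58.5, 54.6, 73.7 and 71.0 FPKM in SA and 59.0, 49.7, 59.8 and 43.3 FPKM in Ctrl. Both genes overlapped between the groups.

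Serpind1, heparin cofactor II and an inhibitor of thrombin, was at 231, 272, 264 and 229 FPKM in SA and 256, 219, 214 and 6.05 FPKM in Ctrl, so that Ctrl 4 stood far below the other 7. On the log2(FPKM + 1) scale the difference was 0.33 ± 0.20 for Cfb, 0.28 ± 0.16 for C2 and 1.37 ± 1.07 for Serpind1 (SE; limma, adjusted p = 0.999 for each). In GENCODE M21 on GRCm38, 81.64% of the exon bases of Cfb and 59.5% of those of C2 are also exon bases of Gm20547, a coding model on the same strand. Serpind1 shares no exon bases with another gene there, but lies wholly inside the span of Pi4ka on the other strand. A summed count of at most 20 beside a mean FPKM above 20 occurred in 166 of 8638 genes held by both tables. The part that gene overlap plays in this was not tested.

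C1q, the recognition molecule of the classical pathway, is built from the chains A, B and C of C1qa, C1qb and C1qc, which lie side by side on chromosome 4. C1qa was at 55.7, 64.9, 67.6 and 84.7 CPM in SA 1 to 4 and 83.0, 79.1, 77.1 and 18.8 CPM in Ctrl 1 to 4. C1qb was at 62.4, 74.8, 82.5 and 96.5 CPM in SA and 97.9, 79.8, 80.6 and 47.7 CPM in Ctrl. C1qc was at 56.5, 58.6, 69.3 and 78.5 CPM in SA and 80.2, 63.1, 66.7 and 26.2 CPM in Ctrl. In all 3 genes Ctrl 4 was the lowest library and the groups overlapped.

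The log2 fold changes were 0.08 ± 0.34 for C1qa, 0.05 ± 0.21 for C1qb and 0.15 ± 0.27 for C1qc (SE; edgeR, adjusted p = 0.996 for each). Without Ctrl 4 all 3 were negative, at -0.23, -0.13 and -0.09 (edgeR, adjusted p = 0.604, 0.792 and 0.841). On the log2(FPKM + 1) scale the median of the 3 genes was 0.49, and C1qc in Ctrl 4 was at 4.79 FPKM. The chains also kept a less even ratio in Ctrl 4. C1qa over C1qb, per kilobase, was 0.86 to 0.93 in SA and 0.89 to 1.04 in Ctrl 1 to 3, and 0.41 in Ctrl 4.

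The 12 Kupffer cell markers summed to 789, 946, 1051 and 1050 CPM in SA and 783, 864, 868 and 564 CPM in Ctrl, so that Ctrl 4 was lowest here as well. Their median log2 fold change was 0.28, with 11 of 12 positive and 1 at an unadjusted p under 0.05, where 6.21% of all genes passed. Markers of monocytes and recruited macrophages summed to 188 to 217 CPM in SA and 197 to 538 CPM in Ctrl. Their median was -0.86, with 11 of 12 tested negative and 7 of these at an unadjusted p under 0.05, where 3.29% of all genes passed in that direction. Itgam and S100a4 were at 0 in every library. In GENCODE M21, 70.04% of the exon bases of Itgam are shared with Gm49368, a coding model on the same strand. For S100a4 the share is 60.64%, with Gm42674, also coding and on the same strand, so both counts of 0 are uncertain. The part of both marker lists in the C1q values was not tested. In bulk tissue fewer cells of a type and less RNA per cell cannot be told apart.

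**Figure D2:**
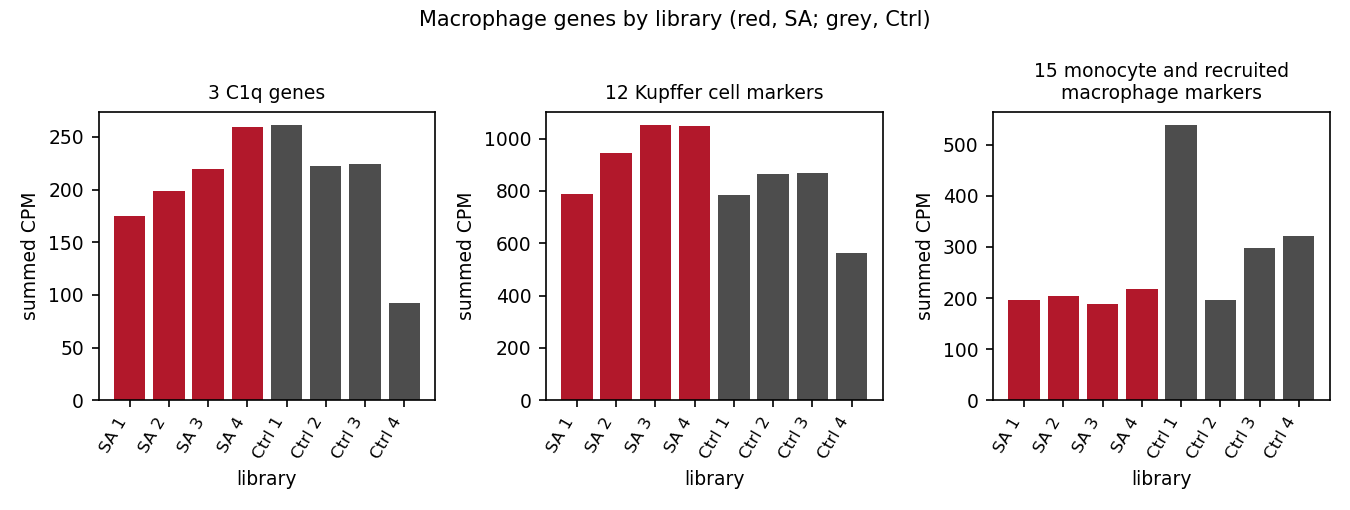
Summed CPM in each library (SA in red, Ctrl in grey) of the 3 C1q genes, of 12 Kupffer cell markers and of 15 markers of monocytes and recruited macrophages. Ctrl 4 is the lowest library for C1q, at 92.8 CPM, and for the Kupffer markers, at 564 CPM.

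C1q was set against the 37 tested members made by hepatocytes, which are all but C1q, Cfp and Cfd. The mean log2 CPM of the C1q genes minus that of the hepatocyte-made members was -3.50, -3.06, -3.11 and -2.65 in SA and -2.57, -2.97, -2.70 and -4.32 in Ctrl. The group means were -3.08 ± 0.35 in SA and -3.14 ± 0.80 in Ctrl (SD, n = 4), a difference of 0.06 that is smaller than the spread of either group. Without Ctrl 4 the difference was -0.33. In that setting 32 of the 37 hepatocyte-made members were positive in sign, against 28 of 37 with all libraries, while the 3 C1q genes were negative. No test was made of this contrast, as its genes were chosen with results known.

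The lectin pathway genes all had a positive sign without passing the test. Mbl1, a mannose-binding lectin, was at 255, 186, 205 and 170 CPM in SA and 162, 227, 167 and 121 CPM in Ctrl (log2 fold change 0.27 ± 0.19, SE; edgeR, adjusted p = 0.980). Masp2, the protease that cleaves C4 and C2, was at 174, 140, 162 and 158 CPM in SA and 118, 153, 145 and 116 CPM in Ctrl (0.25 ± 0.14, SE; edgeR, adjusted p = 0.938). The groups overlapped for both. The 4 genes ranged from 0.18 to 0.27. In GENCODE M21, 56.25% of the exon bases of Masp2 are shared with Tardbp on the other strand. In the FPKM table Masp2 was at 0.42 to 20.5 FPKM in SA and 5.95 to 48.5 FPKM in Ctrl. Its log2 fold change there was -2.25 with an SE of 1.01 (limma, adjusted p = 0.999), so its value is uncertain.

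C3, on which the 3 pathways converge, was at 6819, 6217, 8182 and 6700 CPM in SA and 4483, 3816, 5846 and 4717 CPM in Ctrl. Every SA library lay above every Ctrl library in CPM, with SA 2 and Ctrl 3 the nearest pair. In the FPKM table the groups overlapped, at 1752, 1711, 2295 and 1859 FPKM in SA and 1263, 890, 1866 and 1108 FPKM in Ctrl. The lack of overlap thus rests on the count table. In CPM, C3 was the single member without overlap, where 1.66% of all genes had all SA libraries above all Ctrl libraries. No member had all SA libraries below all Ctrl libraries, which held for 1.46% of all genes. The means were 6979 ± 843 CPM in SA and 4715 ± 845 CPM in Ctrl (SD, n = 4), and the log2 fold change was 0.57 ± 0.19 (SE; edgeR, unadjusted p = 0.0097, adjusted p = 0.562). DESeq2 gave an adjusted p of 0.0888, the lowest of any member with that tool. Leaving out each library gave 0.48 to 0.69.

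C4b, which encodes the C4 of the classical and lectin convertase, was singled out after its values were seen. It was at 2341, 1423, 2043 and 1803 CPM in SA and 1526, 1385, 1426 and 1364 CPM in Ctrl, with SA 2 inside the Ctrl range and the other 3 SA libraries above it. The log2 fold change was 0.42 ± 0.17 (SE; edgeR, unadjusted p = 0.033, adjusted p = 0.754). Its near-identical neighbour C4a, which can share its reads, was at 40.4 to 91.9 CPM in SA and 25.0 to 75.1 CPM in Ctrl.

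Cfd, the protease that activates factor B, had the largest fold change of the members. It was at 46.0, 31.7, 15.1 and 10.7 CPM in SA and 49.0, 119, 69.6 and 45.9 CPM in Ctrl. The groups met at SA 1 and Ctrl 4, and the other 3 SA libraries lay below all Ctrl libraries. The means were 25.9 ± 16.2 CPM in SA and 71.0 ± 33.9 CPM in Ctrl (SD, n = 4). The log2 fold change was -1.46 ± 0.42 (SE; edgeR, unadjusted p = 0.0042, adjusted p = 0.480). It ran from -1.89 without SA 1 to -1.09 without Ctrl 2. Cfp, which stabilises the alternative convertase and was singled out after its values were seen, was at 29.2 to 54.2 CPM in SA, and at 42.1 to 43.3 CPM in Ctrl 1 to 3 and 15.2 CPM in Ctrl 4.

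**Figure D3:**
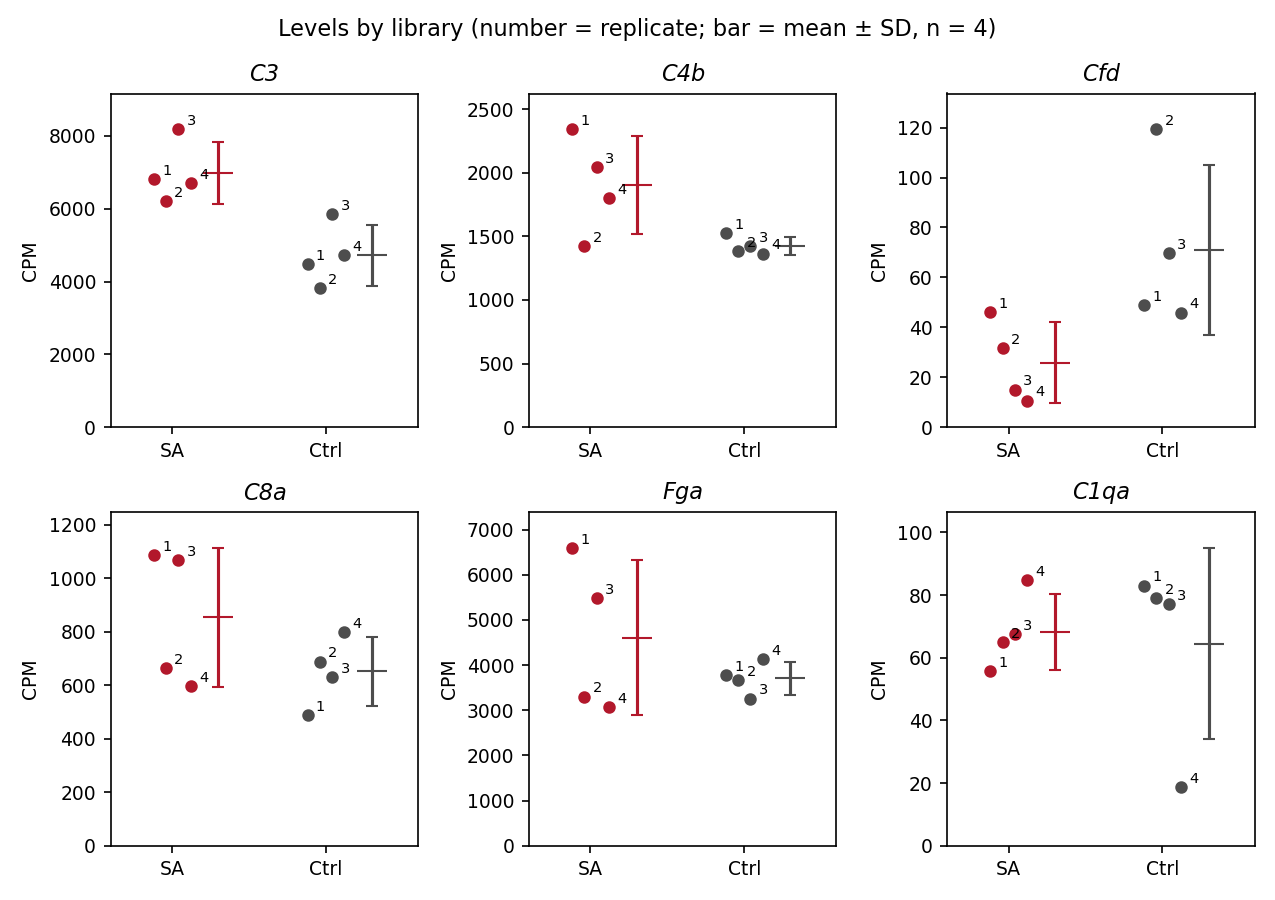
CPM of C3, C4b, Cfd, C8a, Fga and C1qa in each library (points, numbered by replicate; SA in red, Ctrl in grey) with mean ± SD (n = 4). The 4 SA libraries are above the 4 Ctrl libraries for C3 alone of these 6 genes, and 1 Ctrl library, at 18.8 CPM, lies far below the rest for C1qa.

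The terminal pathway genes make C5 (Hc) and the subunits of the membrane attack complex. Hc was at 913, 557, 997 and 618 CPM in SA and 496, 565, 580 and 845 CPM in Ctrl (log2 fold change 0.31 ± 0.22, SE; edgeR, adjusted p = 0.978). C8a, the pore-forming alpha chain of C8, was at 1087, 665, 1068 and 596 CPM in SA and 490, 688, 629 and 799 CPM in Ctrl (0.39 ± 0.23, SE; edgeR, adjusted p = 0.939). In both genes SA 1 and SA 3 were above every Ctrl library and SA 2 and SA 4 were within the Ctrl range. The 6 genes ranged from -0.07 to 0.44, with 4 positive.

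In counts, the 3 chains of C8 did not keep step across libraries. C8b and C8g, set beside C8a after their values were seen, had log2 fold changes of 0.44 ± 0.32 and -0.04 ± 0.17 (SE; edgeR, adjusted p = 0.979 and 0.996). Per kilobase, C8a over C8g was 1.18, 0.67, 1.41 and 0.61 in SA and 0.50, 0.57, 0.81 and 1.03 in Ctrl. C8b over C8g spanned a 4.08-fold range over the 8 libraries and C8a over C8g a 2.82-fold range. C8a and C8b lie side by side on chromosome 4 and C8g on chromosome 2. In the FPKM table C8b over C8g spanned a similar 4.39-fold range. C8a is uncertain, since it was at 0.40 to 12.4 FPKM there, its FPKM over CPM spanned 31.8-fold over the libraries and its log2 fold change was 1.73 ± 0.63 (SE; limma, adjusted p = 0.999).

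Among the complement regulators, 4 of 5 had a positive sign, between -0.02 and 0.25. Cfi, the protease that inactivates C3b and C4b, was at 619, 609, 674 and 692 CPM in SA and 609, 531, 537 and 546 CPM in Ctrl (0.22 ± 0.13, SE; edgeR, adjusted p = 0.942). Vtn, vitronectin, an inhibitor of the attack complex, was at 2130, 1851, 2106 and 2039 CPM in SA and 1798, 1969, 1662 and 1382 CPM in Ctrl (0.25 ± 0.16, SE; edgeR, adjusted p = 0.955). Cfi met only at its edges, SA 2 lying just under Ctrl 1, and for Vtn SA 2 alone lay within the Ctrl range.

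The contact system starts coagulation on charged surfaces and releases bradykinin. F12, its initiating protease, was at 483, 474, 484 and 531.5 CPM in SA and 520.5, 582, 471 and 292 CPM in Ctrl (log2 fold change 0.08 ± 0.19, SE; edgeR, adjusted p = 0.996). Kng1, the bradykinin precursor, was at 1696, 1678, 1868 and 1735 CPM in SA and 1864, 1702, 1550 and 2160 CPM in Ctrl (-0.06 ± 0.16, SE; edgeR, adjusted p = 0.996). The groups overlapped for both, and Ctrl 4 was the lowest library for F12 and the highest for Kng1. The 4 genes lay between -0.08 and 0.08. Kng1 has a near-identical paralog, Kng2, so its count is uncertain. Klkb1, the lowest of the 4, shares 43.19% of its exon bases with Gm45753, a coding model on the same strand in GENCODE M21. Its count is uncertain as well.

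Of the genes of thrombin generation, F7, the protease that starts coagulation with tissue factor, was at 80.5, 77.1, 82.8 and 94.4 CPM in SA and 66.4, 81.3, 60.8 and 66.0 CPM in Ctrl. Ctrl 2 lay within the SA range and the other 3 Ctrl libraries below it (0.29 ± 0.14, SE; edgeR, unadjusted p = 0.058, adjusted p = 0.833). F10, which forms thrombin with factor V, was at 348, 367, 360 and 387 CPM in SA and 361, 388, 290.4 and 290.9 CPM in Ctrl (0.14 ± 0.14, SE; edgeR, adjusted p = 0.996). The groups overlapped for F10. The 5 genes ranged from -0.08 to 0.29, with 4 positive.

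In CPM the fibrinogen chains were the most abundant coagulation transcripts, and their values turned on single libraries. Fga was at 6598, 3302, 5478 and 3063 CPM in SA and 3779, 3662, 3257 and 4138 CPM in Ctrl. Fgb was at 5582, 2873, 4278 and 2565 CPM in SA and 3185, 3124, 2643 and 4764 CPM in Ctrl. SA 1 was the highest library for both and SA 4 the lowest, and the groups overlapped.

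The log2 fold changes were 0.31 ± 0.24 for Fga and 0.16 ± 0.26 for Fgb (SE; edgeR, adjusted p = 0.989 and 0.996). Without SA 1 they were 0.09 and -0.08. Fgg, set beside them after its values were seen, was at 0.05 ± 0.24 and F13b, which carries the cross-linking factor XIII, at -0.07 ± 0.16 (SE; edgeR, adjusted p = 0.996 for each). Of the 3 fibrinogen genes, neighbours on chromosome 3, Fgg and Fgb kept a nearly even ratio, at 1.35 to 1.47 per kilobase in SA and 1.45 to 1.59 in Ctrl. In counts, Fga over Fgb was 1.45 to 1.62 in SA and 1.48 to 1.56 in Ctrl 1 to 3, and 1.10 in Ctrl 4. In the FPKM table Fgg over Fgb spanned 1.19-fold over the libraries, near its 1.18-fold in counts. Fga over Fgb was far lower there, at 0.039 to 0.075 in SA and 0.033 to 0.076 in Ctrl, and spanned 2.32-fold against 1.47-fold in counts, so the Fga ratio is uncertain.

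**Figure D4:**
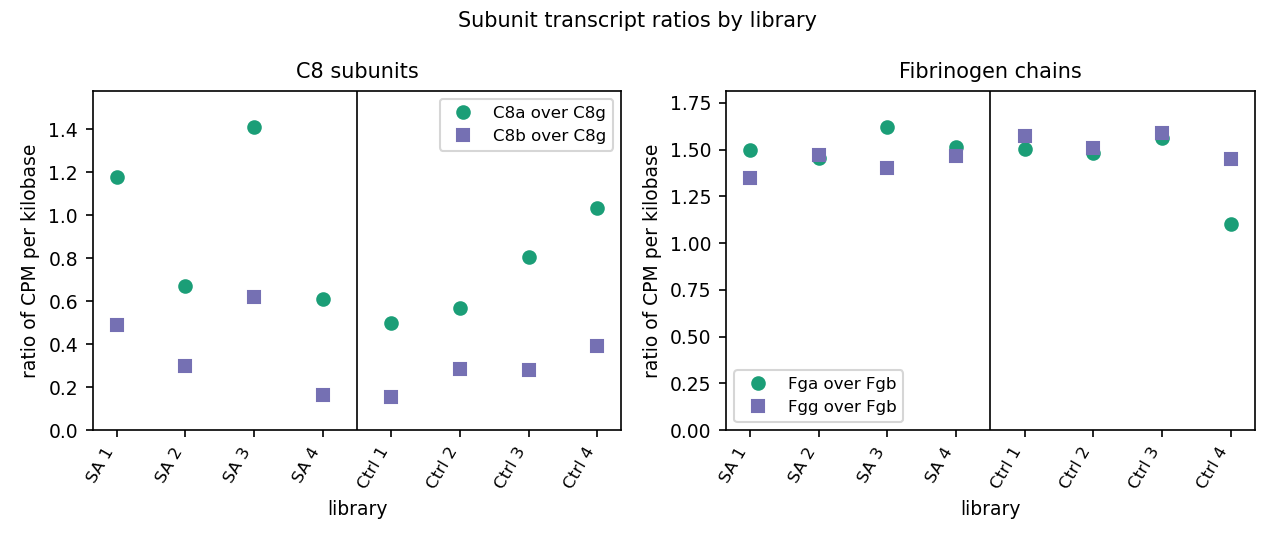
Ratios of CPM per kilobase, from the count table, in each library, SA left and Ctrl right: C8a and C8b over C8g (left panel) and Fga and Fgg over Fgb (right panel). The C8 ratios span 2.82-fold and 4.08-fold over the libraries, and the fibrinogen ratios 1.47-fold and 1.18-fold.

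SA 1 and SA 3 were the highest 2 libraries for 12 of the 42 members, counted after the values were seen, where this held for 4.43% of all tested genes. The 12 were Masp2, C3, C4b, Hc, C6, C8a, C8b, Serping1, Vtn, Fga, Plg and Serpinf2. SA 1 was the highest library for 14 members, where it was so for 9.97% of all genes, and the lowest for none, against 8.12%. Ctrl 3 was the lowest for 14, against 10.5% of all genes. Ctrl 4 was the highest for 9 and the lowest for 12, against 24.2% and 25.1% of all genes. A list of 19 acute phase genes was also highest in SA 1 and SA 3. Of these, 17 were positive, with a median log2 fold change of 0.46, against 0.12 over the tested members. In edgeR, 7 had an unadjusted p under 0.05, all positive, where 2.91% of all genes passed in that direction. The median over these genes of the deviation from the gene's mean, in log2 CPM, was 0.54, -0.20, 0.28 and 0.19 in SA and 0.02, -0.38, -0.12 and -0.24 in Ctrl. The median over the fibrinogen genes and F13b was 0.61, -0.28, 0.26 and -0.42 in SA and -0.06, -0.13, -0.32 and 0.38 in Ctrl. Both were highest in SA 1, whereas SA 4 and Ctrl 4, and by less than 0.1 from 0 Ctrl 1, had opposite signs in the 2 lists. The part of an acute phase state in the member values was not tested.

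**Figure D5:**
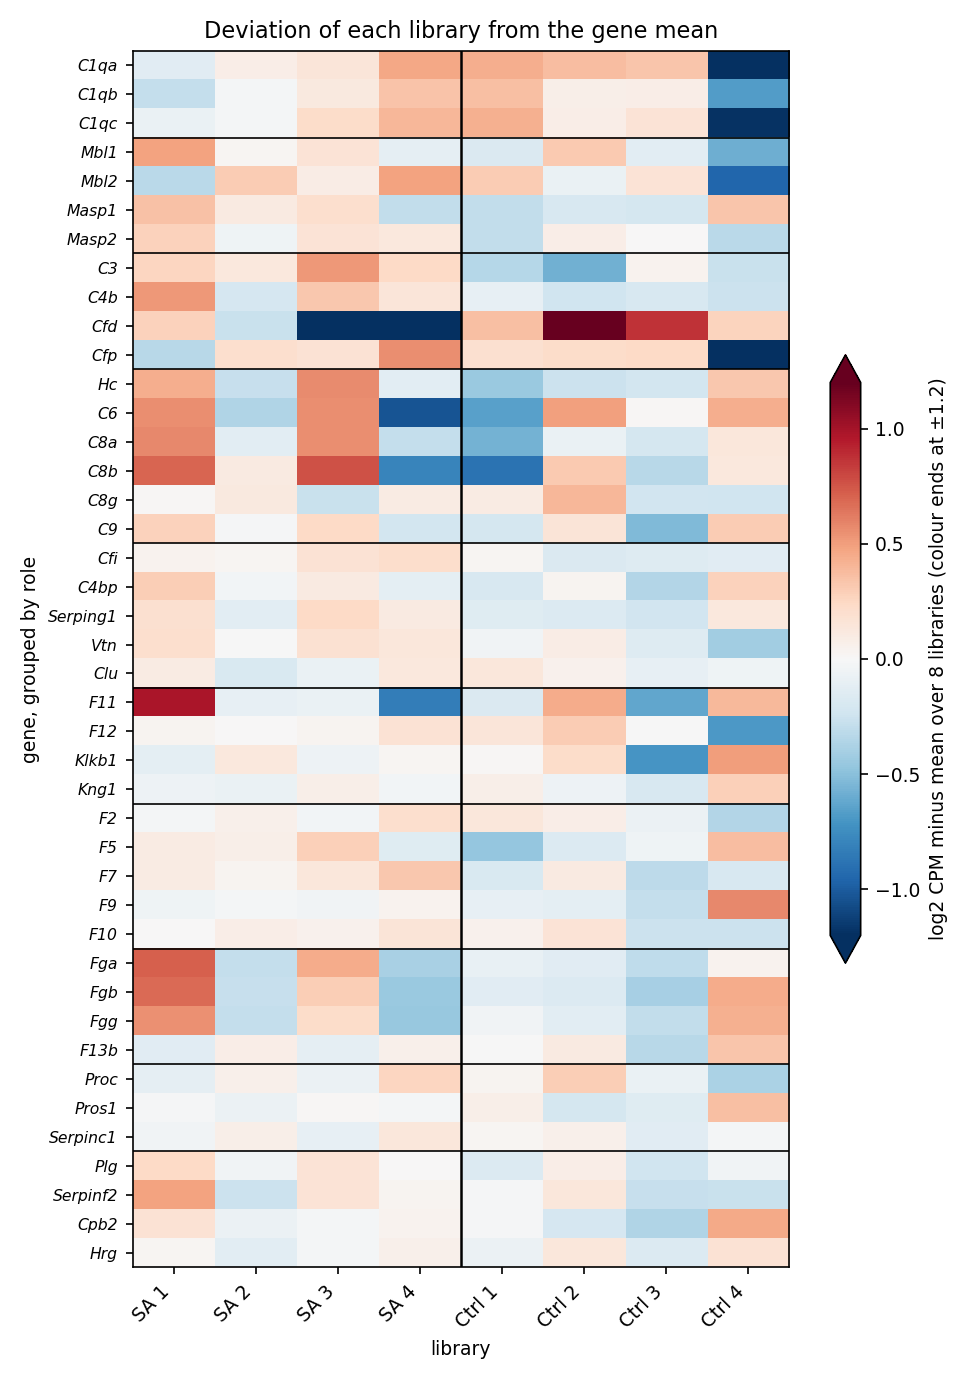
Deviation of each library from the gene's mean over 8 libraries, in log2 CPM, for the 42 tested members grouped by role (rows) and library (columns, SA left, Ctrl right; colour ends at ±1.2). SA 1 and SA 3 run high together in C3, C4b, Hc, C8a, C8b and Fga, and Ctrl 4 runs low in C1q and Cfp.

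The 3 tested anticoagulant genes had log2 fold changes from -0.06 to 0.06. Proc, protein C, which inactivates factors V and VIII, was at 402, 454, 412 and 518 CPM in SA and 443, 531, 409 and 334 CPM in Ctrl (log2 fold change 0.06 ± 0.17, SE; edgeR, adjusted p = 0.996). Pros1, protein S, its cofactor, was at 91.8, 88.4, 93.7 and 91.5 CPM in SA and 97.6, 80.2, 84.1 and 119 CPM in Ctrl (-0.06 ± 0.15, SE; edgeR, adjusted p = 0.996). For Pros1 the 4 SA libraries were close together and all within the Ctrl range. In the FPKM table Proc was at 20.1, 392, 7.55 and 15.8 FPKM in SA and 394, 4.35, 10.1 and 243 FPKM in Ctrl. Its sign there was the opposite, at -0.57 with an SE of 1.69 (limma, adjusted p = 0.999). Its FPKM over CPM spanned 109-fold over the libraries, so its FPKM values are uncertain. Antithrombin, Serpinc1, the other tested gene of this group, was at 0.04, with 58.32% of its exon bases shared with Zbtb37 on the other strand. In the FPKM table Serpinc1 was at -0.34 with an SE of 0.40 (limma, adjusted p = 0.999).

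Fibrinolysis genes had 3 of 4 positive signs. Plg, plasminogen, was at 1864, 1533, 1769 and 1587 CPM in SA and 1412, 1672, 1342 and 1534 CPM in Ctrl (0.18 ± 0.15, SE; edgeR, adjusted p = 0.996). Serpinf2, antiplasmin, the main inhibitor of plasmin, was at 821, 491, 659 and 602 CPM in SA and 583, 645, 485 and 488 CPM in Ctrl (0.23 ± 0.18, SE; edgeR, adjusted p = 0.989). The groups overlapped for both. Of the exon bases of Plg, 15.23% are shared with Slc22a3 on the other strand. The other genes of the group, Cpb2 and Hrg, were at 0.03 and -0.04.

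The wider pathways were counted from lists of other genes. Of 36 other complement genes, 26 were tested and none passed with edgeR. Of the 26, 12 were positive, or 46.2%, against 48.7% of all genes, with a median log2 fold change of -0.02. Cd93, a receptor of endothelial and myeloid cells, and C5ar1, the receptor for C5a, were the 2 at an unadjusted p under 0.05, both negative, against 6.21% of all genes. Cd93 was at 10.1, 10.9, 9.27 and 5.39 CPM in SA and 19.7, 10.6, 16.1 and 15.1 CPM in Ctrl (-0.79 ± 0.25, SE; edgeR, adjusted p = 0.534). C5ar1 was at 2.41, 3.13, 2.63 and 2.28 CPM in SA and 5.80, 2.14, 5.85 and 4.59 CPM in Ctrl (-0.82 ± 0.31, SE; edgeR, adjusted p = 0.697). For C5ar1 Ctrl 2 was the lowest of all 8 libraries, and the other 3 Ctrl libraries lay above every SA library. For Cd93 Ctrl 2 lay within the SA range.

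Of 29 other coagulation and fibrinolysis genes, 23 were tested and none passed with edgeR, while 4 had an unadjusted p under 0.05, against 6.21% of all genes. Of the 23, 9 were positive, or 39.1%, against 48.7% of all genes, with a median log2 fold change of -0.04. The activators of plasminogen were lower in value. Plau, urokinase, was at 2.95, 3.88, 3.46 and 3.33 CPM in SA and 9.42, 3.79, 6.52 and 5.81 CPM in Ctrl (-0.91 ± 0.27, SE; edgeR, adjusted p = 0.509). Plat, tissue plasminogen activator, was at 0.40, 0.81, 0.62 and 0.61 CPM in SA and 5.60, 0.48, 1.21 and 1.65 CPM in Ctrl (-1.85 ± 0.63, SE; edgeR, adjusted p = 0.572). For both genes Ctrl 2 overlapped the SA libraries and the other 3 Ctrl libraries lay above them. Stellate cell markers, likewise highest in Ctrl 1 and lowest in Ctrl 2 among the Ctrl libraries, summed to 359 to 435 CPM in SA and 951, 440, 550 and 807 CPM in Ctrl, with 10 of 10 tested negative and a median of -0.71. Monocyte and recruited macrophage markers, at 538, 197, 298 and 321 CPM in Ctrl 1 to 4, had the same order of Ctrl libraries. So did bile duct markers, at 38.1 to 67.0 CPM in SA and 135, 35.2, 58.6 and 107 CPM in Ctrl. Of the bile duct markers, 5 of 6 tested were negative, with a median of -0.87. The part of these marker lists in the Plau and Plat values was not tested.

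The other 2 of the 4 were positive and were named after their values were seen. Proz, protein Z, and Serpina10, the inhibitor of factor Xa for which protein Z is the cofactor, form a pair. Proz was at 346, 330.3, 363 and 323 CPM in SA and 263, 311, 260.0 and 269 CPM in Ctrl, with no overlap, as in 1.66% of all genes (0.30 ± 0.13, SE; edgeR, adjusted p = 0.776). Serpina10 was at 343, 171, 269 and 188 CPM in SA and 177, 174, 201 and 149 CPM in Ctrl (0.47 ± 0.21, SE; edgeR, adjusted p = 0.797), with SA 2 and SA 4 within the Ctrl range. SA 1 and SA 3 were again the highest libraries for Serpina10.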

How the data were processed

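Per the labels' protocols, RNAiso Plus served to extract RNA from frozen mouse liver and a NEBNext Ultra kit, not described as strand-specific, to prepare libraries. The deposited count table holds raw read counts per gene for 8 libraries, and the deposited FPKM table holds the authors' FPKM values. The submitters' processing notes list HISAT2, StringTie 2.2.1 and FastQC 0.19.7, as well as mm10 and GRCm39, 2 builds with no stated role. The sources used here do not name the counting program.

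Samples were grouped by title. Counts were fitted with edgeR 4.0.16 in R 4.3.3 (TMM factors, filterByExpr, quasi-likelihood F test, 4 against 4), which left 12358 genes, and p-values were adjusted over all of them. Each SE is the absolute log2 fold change over the square root of F. FPKM values were tested with limma 3.58.1 on log2(FPKM + 1). Between CPM and FPKM the libraries could differ: of 42 members, 28 kept a ratio of FPKM to CPM within 1.5-fold over the libraries and 9 did not keep it within 2-fold, nor did 40.0% of 7940 tested genes in both tables. The 9 members were C1qc, Masp2, Cfp, C8a, Clu, F10, Fga, Proc and Serpinc1. The biological coefficient of variation was 22.6%. Every pair of libraries differed beyond sampling noise (chi-square per degree of freedom of at least 27.7). The edgeR fit was tested on simulated data, where 76% of 2-fold and 100% of 4-fold changes were called, with 13 false among 189 calls. Changes smaller than 2-fold were not simulated.

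The members and lists were chosen with earlier results of these data known. Named members were the C1q genes and the 2 with the smallest p in each role group, and in the 2 wider pathway lists the 2 genes with the smallest p. The rule also picks genes of the marker, acute phase and transcription factor lists, which are not named here. Other genes were named after their values were seen, as the text says. Exon lengths, overlaps and chromosomes are from GENCODE M21 on GRCm38 and may differ from the authors' annotation. Alternatives were DESeq2 1.42.0, RLE factors, other filters, FPKM with other pseudocounts, the omission of each library, and a replicate block.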

Additional observations from a re-analysis of the deposited data

Results flagged for a closer look

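Of 88 groups of 4 libraries checked among the tested members and the summed values, 4 held a library that stood far from the other 3. Chance gives about 1 in 20, and 4 of 88 is near that share. C1qa was at 18.8 CPM in Ctrl 4 and at 77.1 to 83.0 CPM in Ctrl 1 to 3. Cfp, properdin, was at 15.2 CPM in Ctrl 4, against 42.1 to 43.3 CPM. Masp1 was at 217 CPM in Ctrl 4, against 140 to 150 CPM. F12 was at 531.5 CPM in SA 4, against 474 to 484 CPM in the other SA libraries. Ctrl 4 carried the high mitochondrial share of 9.23% and the lowest Kupffer cell marker sum of 564 CPM. Their part in these values was not tested.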

How the results depend on the processing

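No tested member passed under any of the 16 alternatives. Over all genes, 2 passed with edgeR, 62 with DESeq2, 8 with no low-count filter and 6 with the replicate block, and 0 to 19 when 1 library was left out, with 19 without SA 1 and 0 without Ctrl 4. Libraries of the same replicate number showed no shared deviation, as their correlations were -0.22 to 0.22 and none matched its own number best. This check cannot tell whether the libraries were paired by design. The median of the hepatocyte-made members was 0.08 to 0.19 with 1 library left out. The C1q median was -0.13 to 0.22, negative without Ctrl 4 or SA 4, and the C1q minus hepatocyte-made difference -0.33 to 0.25. On FPKM the C1q median was 0.49 to 0.50 and that difference 0.32. Of the 21 named members, 12 never changed sign. With 1 library left out, log2 fold changes ran from -0.23 to 0.22 for C1qa, -0.13 to 0.18 for C1qb, -0.095 to 0.33 for C1qc, -0.10 to 0.21 for F12, -0.13 to 0.026 for Kng1, -0.081 to 0.35 for Fgb, -0.13 to 0.060 for Pros1 and -0.054 to 0.18 for Proc. On FPKM with pseudocounts of 1, 0.1 and 1 without a filter, Masp2 was at -2.25, -2.92 and -2.25 and Proc at -0.57, -0.55 and -0.57; the cause was not tested.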
